A study of Rattus norvegicus with 42 samples.

Results

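The subunits of the NMDA receptor were followed in the hippocampus of rat pups given a single dose of an anti-seizure drug. The members were every transcript whose symbol was Grin1, Grin2a, Grin2b, Grin2c, Grin2d, Grin3a or Grin3b in the table of estimated counts, which gave 15 RefSeq transcripts of 7 genes among 15516 transcripts of 14304 gene symbols. All 15 passed the filter on low counts, as did 13062 transcripts in all. Male Sprague Dawley pups were injected intraperitoneally on postnatal day 7 with saline (vehicle, VEH), with the barbiturate phenobarbital at 75 mg/kg (PB) or with levetiracetam, an anti-seizure drug that is no barbiturate, at 200 mg/kg (LEV), and whole hippocampi were taken 72 h later. One library was made per animal from 14 animals a group, and 1 VEH animal that its title marks as excluded was left out, leaving 13 VEH, 14 PB and 14 LEV animals. Every animal, VEH included, was killed with pentobarbital, itself a barbiturate, and the LEV dose was chosen by the study above the therapeutic range. The sample codes take 2 forms, which separate animals 1 to 6 from animals 7 to 14 in all groups, and this form was used as the batch. The labels do not say what it marks.

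NMDA receptors are glutamate-gated cation channels that pass calcium and are needed for many forms of synaptic plasticity in the hippocampus. GluN1, the product of Grin1, is the obligatory subunit and binds the co-agonist glycine or D-serine. The GluN2 subunits, from Grin2a to Grin2d, bind glutamate and set the kinetics of the channel, and the GluN3 subunits, from Grin3a and Grin3b, bind glycine and lower calcium entry. In the hippocampus GluN2B prevails around birth and GluN2A rises over the following weeks, so that the ratio of Grin2b to Grin2a is used as a measure of developmental stage. The comparison of VEH with PB and LEV asks whether either drug alters these transcripts shortly after exposure in early life.

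In the rn6 annotation of the files, all 8 Grin1 transcripts shared 1 span on chromosome 3, from 2507745 to 2534664, and are forms of 1 gene. Grin2a lay on chromosome 10 from 5707806 to 6119898 and Grin2c on the same chromosome from 103798411 to 103816017. Grin2b lay on chromosome 4 (169559949 to 169998449) and Grin2d on chromosome 1 (101820461 to 101856882). Both Grin3a transcripts lay on chromosome 5 (64928620 to 65073013) and Grin3b on chromosome 7 (12764993 to 12771311). Each value below covers the whole transcript, and exons were not counted apart.

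Of the members, Grin1, Grin2c, Grin2d and Grin3a matched the RefSeq promoter sequences (GRCr8, a later build than that of the counts), each window holding 250 bases before and 50 bases after the gene start. The promoters of Grin1 (chr3:28528705-28529004, minus strand) and Grin3a (chr5:69001509-69001808, minus strand) are shown because these are the members with more than 1 transcript, and capitals mark a GC box, searched as GGGCGG or CCGCCC.
Grin1: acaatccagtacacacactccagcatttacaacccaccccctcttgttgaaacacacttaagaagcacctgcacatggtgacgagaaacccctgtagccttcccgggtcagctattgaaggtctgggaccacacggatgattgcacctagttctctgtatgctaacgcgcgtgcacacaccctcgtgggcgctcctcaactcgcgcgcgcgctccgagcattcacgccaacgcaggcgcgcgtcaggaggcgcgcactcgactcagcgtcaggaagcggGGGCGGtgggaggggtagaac
Grin3a: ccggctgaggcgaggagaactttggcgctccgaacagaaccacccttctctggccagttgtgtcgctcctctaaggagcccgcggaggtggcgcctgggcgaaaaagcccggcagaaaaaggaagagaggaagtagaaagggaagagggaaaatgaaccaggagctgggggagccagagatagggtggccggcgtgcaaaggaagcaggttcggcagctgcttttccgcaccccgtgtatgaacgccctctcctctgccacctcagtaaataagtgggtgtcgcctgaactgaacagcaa
The Grin1 promoter held 1 GC box, and those of Grin2c, Grin2d and Grin3a held none of these letters. A GC box was present in 33.1% of 33469 promoters of the same length, and a cAMP response element searched as TGACGTCA, present in 1.83% of them, was found in none of the 4. The Grin1 window held 25 CpG dinucleotides, against 17 for Grin3a, 11 for Grin2c and 11 for Grin2d. The median over all promoters was 7.

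The analysed libraries held 9499492 to 14488134 estimated counts (median 11319144). Over the 41 animals the mean estimated count was 6782 for Grin1 with its transcripts summed, 642 for Grin2a, 617 for Grin2b, 1227 for Grin2c, 765 for Grin2d, 592 for Grin3a summed and 43.4 for Grin3b. These counts were not divided by transcript length, so levels are not compared between genes. All 5 neuron markers and all 7 markers of excitatory hippocampal neurons passed the filter, whereas 0 of 3 markers of cerebellar granule cells did. VEH animal 1 went against its male label, with 1 count of the Y-linked Eif2s3y and 0 of the Y-linked Ddx3, against 705 to 1028 and 475 to 891 in the other 40 animals. Results without this animal are also given for Grin2b in LEV against VEH and for the ratio of Grin2b to Grin2a against VEH. They are likewise given for Grin2a, Grin2b and Grin3a NM_138546 within animals 1 to 6. Grin2b in PB against VEH over all animals, and the comparison of the code forms themselves, include it. In bulk tissue, fewer cells of a type and less RNA per cell cannot be told apart.

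**Figure D1:**
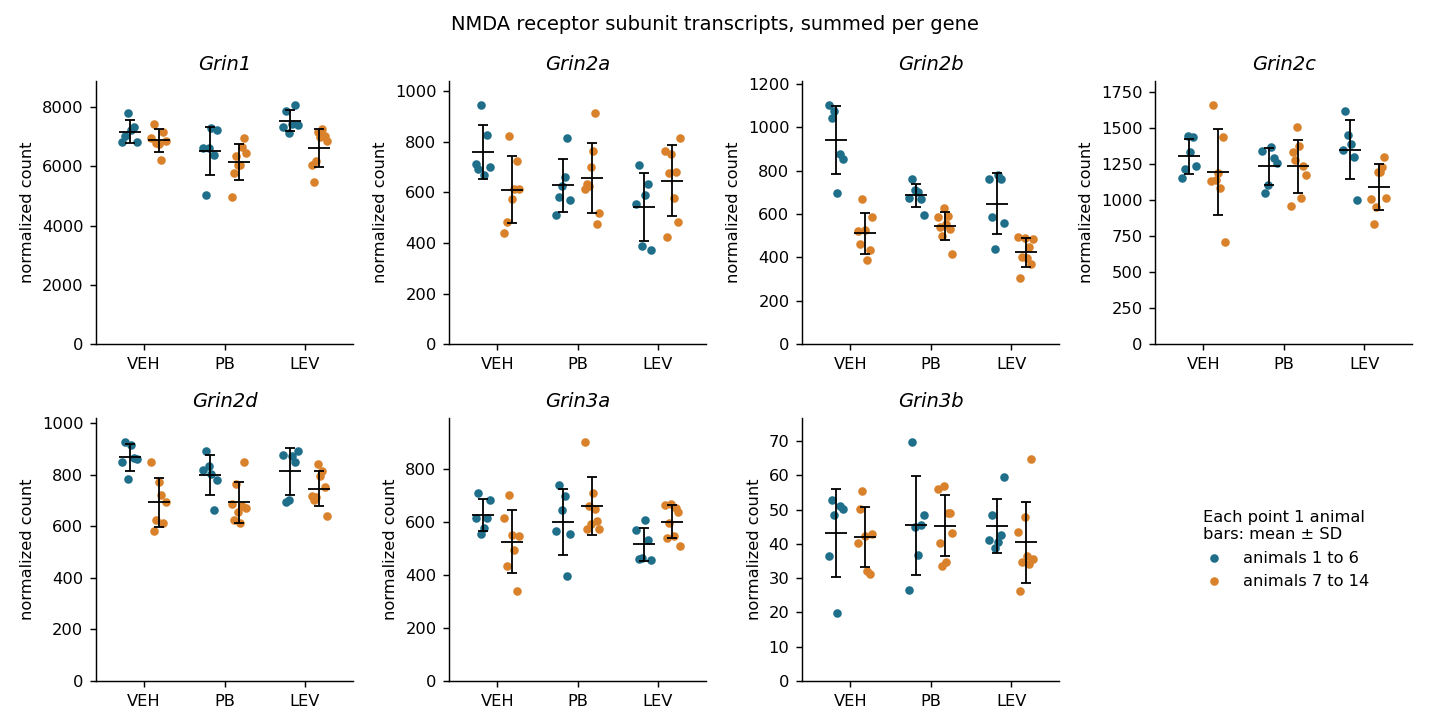
Normalized counts (vertical axes, from 0) of the 7 NMDA receptor subunit genes in VEH, PB and LEV animals, with each point 1 animal, colour giving animals 1 to 6 or 7 to 14, and bars the mean ± SD of each. The mean of Grin2b was lower in animals 7 to 14 of every group, and its VEH values in animals 1 to 6 reached 1104.

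Few subunit transcripts passed the test in any comparison. A call required an adjusted p under 0.05 together with a log2 fold change of at least 0.32 in size. By these limits 0 of 15 members were called between PB and VEH, where 0.605% of all tested transcripts were called (edgeR quasi-likelihood test, Benjamini-Hochberg adjusted over every transcript tested). Between LEV and VEH 0 of 15 members were called, as were 0% of all transcripts, and between PB and LEV 1 of 15 was called against 0.582% of all. Without the limit on the fold the members called were 0, 0 and 1, beside 5.39%, 0.00766% and 4.45% of all transcripts. At an unadjusted p under 0.05 there were 3 members between PB and VEH, all of Grin1, 1 between LEV and VEH, which was Grin2b, and 5 between PB and LEV. The shares of all transcripts at that limit were 20.2%, 5.84% and 19.6%. DESeq2 called 0, 1 and 1 members in the same order, among 0.651%, 0.0383% and 0.658% of all transcripts. The median log2 fold change of the 15 members was -0.08 for PB against VEH, -0.01 for LEV against VEH and 0.05 for PB against LEV, beside 0.0046, 0.0003 and 0.0033 for all transcripts tested.

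**Figure D2:**
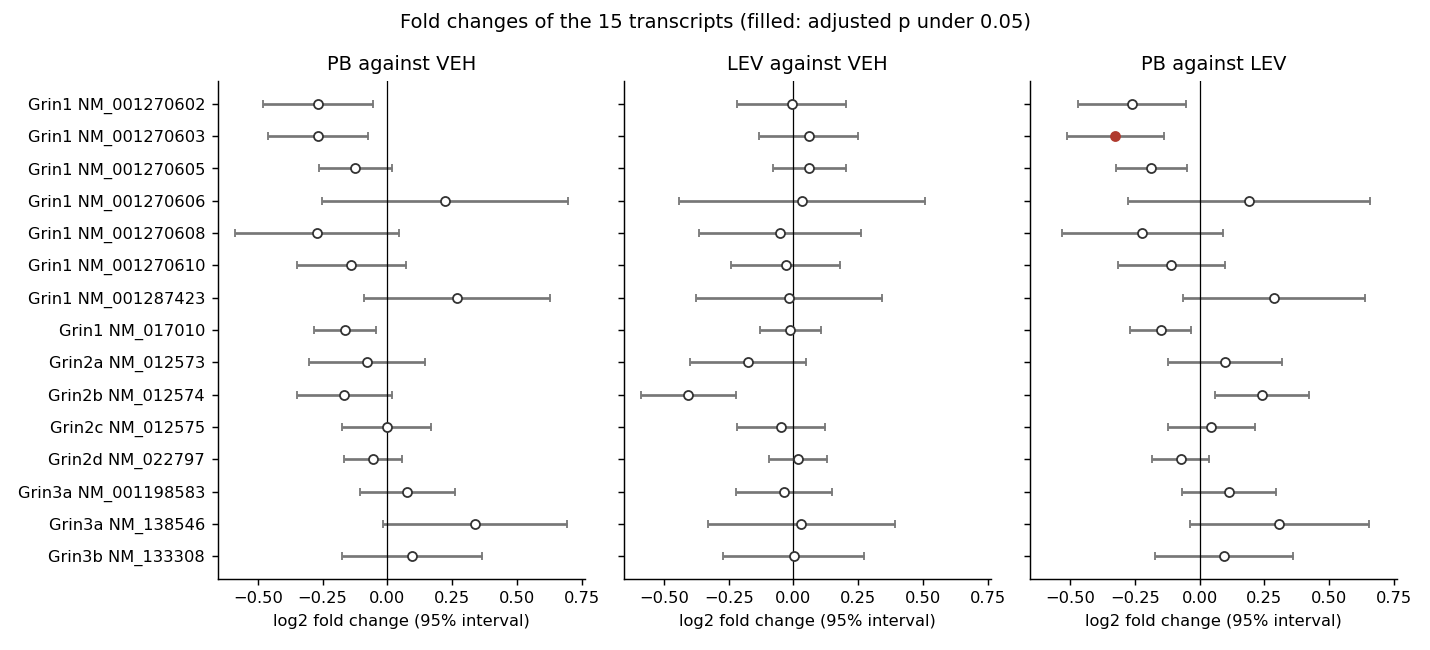
Log2 fold changes of the 15 subunit transcripts (rows) in the 3 comparisons, with 95% intervals from the standard error and filled points where the adjusted p was under 0.05. Only Grin1 NM_001270603 in PB against LEV is filled, and the interval of Grin2b in LEV against VEH, from -0.59 to -0.22, lies below 0.

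Grin1, which encodes the subunit present in every NMDA receptor, had a lower mean count after PB than in either other group, and whether the differences for the gene as a whole passed the adjusted limit depended on the fit. The summed normalized count ranged from 6215 to 7805 (median 6949) in VEH, from 4974 to 7282 (median 6424) in PB and from 5476 to 8066 (median 7143) in LEV. The groups overlapped, although 4 of 6 PB animals among animals 1 to 6 and 4 of 8 among animals 7 to 14 lay below every VEH animal of the same code form. The mean was 7009 ± 392 for VEH (SD, n = 13), 6312 ± 697 for PB (n = 14) and 7013 ± 697 for LEV (n = 14). For PB against VEH the log2 fold change was -0.15 (SE 0.048, adjusted p = 0.0544), and 11 of 14 PB animals fell short of the mean of VEH animals with their code form. For PB against LEV it was -0.15 (SE 0.047, adjusted p = 0.0506), and 12 of 14 PB animals had less than the mean of LEV. In the fit of sums per gene, which called 0.674% of genes in PB against VEH, 0% in LEV against VEH and 0.608% in PB against LEV, Grin1 was not called. Those shares include the limit on the fold, which a log2 fold change of -0.15 does not reach. By adjusted p alone, 5.39% of single transcripts passed in PB against VEH and 4.45% in PB against LEV. The share of summed genes by adjusted p alone is not given here. Over 11 other settings the adjusted p of the sum ran from 0.0206 to 0.402 for PB against VEH and was under 0.05 in 3, and for PB against LEV it ran from 0.0101 to 0.387 and was under 0.05 in 5. DESeq2 gave 0.0328 and 0.0282. On leaving out 1 animal at a time it was under 0.05 in 6 of 27 and 8 of 28 fits. LEV and VEH differed by 0.0033 on the log2 scale (95% interval -0.09 to 0.10).

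The single member called was a minor Grin1 transcript, NM_001270603, which made up a mean of 4.22% of Grin1 counts over all animals. Its normalized count ranged from 188 to 437 (median 302) in VEH, from 178 to 326 (median 245) in PB and from 161 to 431 (median 294) in LEV. The range of PB lay inside that of LEV, so the groups overlapped. It fell by 0.33 on the log2 scale in PB relative to LEV (SE 0.096, unadjusted p = 0.00149, adjusted p = 0.0400), and 12 of 14 PB animals fell short of the mean of LEV animals with their code form. Relative to VEH its log2 fold change was -0.27 (SE 0.098, adjusted p = 0.0977). For LEV against VEH it was 0.06 (SE 0.097, adjusted p = 0.984). The call against LEV held in 6 of 11 other settings, with adjusted p from 0.00747 to 0.400 over the 11, and DESeq2 gave 0.0209. It did not hold in animals 1 to 6 alone (-0.48, adjusted p = 0.134), in animals 7 to 14 alone (-0.21, adjusted p = 0.400) or without a term for the code form (adjusted p = 0.0822). Those fits called 0.161%, 0.452% and 0.398% of all transcripts. It was also lost on leaving out any 1 of PB animals 2, 3, 4, 5, 7, 10 or 13 or of LEV animals 1, 2, 3, 4, 6, 10, 11, 12 or 14, and in the fit with all 14 VEH animals (adjusted p = 0.133), which called 0.26% of all transcripts.

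The other Grin1 transcripts are forms of the same gene, and their counts depend on how reads common to several forms were divided. NM_017010 was the main form, with 45.9% of Grin1 counts on average (38.2% to 52.2% over the animals). Its mean normalized count was 3237 ± 265 in VEH, 2891 ± 398 in PB and 3209 ± 432 in LEV, and its log2 fold change in PB against VEH was -0.16 (SE 0.061, adjusted p = 0.105). NM_001270602 showed a log2 fold change of -0.27 against VEH (SE 0.11, adjusted p = 0.141) and -0.26 against LEV (SE 0.11, adjusted p = 0.154). The 2 forms with a positive value for PB against VEH, NM_001270606 (0.22, adjusted p = 0.663) and NM_001287423 (0.27, adjusted p = 0.436), had means of 51.8 and 253 estimated counts per animal. The remaining 3 forms, NM_001270605, NM_001270608 and NM_001270610, had log2 fold changes of -0.12, -0.27 and -0.14 in PB against VEH, with adjusted p from 0.343 to 0.512.

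Grin2b, the GluN2 subunit of the immature hippocampus, had the lowest values after LEV. Its normalized count ranged from 390 to 1104 (median 669) in VEH, from 418 to 760 (median 594) in PB and from 304 to 783 (median 487) in LEV. The VEH group was the widest, since its animals 1 to 6 lay between 700 and 1104 and its animals 8 to 14 between 390 and 669. The mean was 711 ± 254 for VEH (SD, n = 13), 605 ± 93.9 for PB (n = 14) and 520 ± 153 for LEV (n = 14). For LEV against VEH the log2 fold change was -0.41 (SE 0.094), a fold of 0.755, with an unadjusted p of 8.86e-05 and an adjusted p of 0.179 (edgeR, n of 14 and 13). All 14 LEV animals had values under the mean of VEH animals with the same code form, 6 of 6 among animals 1 to 6 and 8 of 8 among animals 7 to 14. Grin2b held the sixth smallest p of that comparison.

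Whether Grin2b passed the limit in LEV against VEH depended on the fit. It was called by DESeq2 (adjusted p = 0.0370), by edgeR with a term for treatment by code form (adjusted p = 0.0325), in animals 1 to 6 alone (-0.53, adjusted p = 0.0250) and after the subtraction of batch effects that the study describes, followed by DESeq2 (adjusted p = 0.00135). These 4 fits called 0.0383%, 0.0383%, 1.31% and 0.0995% of all transcripts. In animals 7 to 14 alone the log2 fold change was -0.27 (unadjusted p = 0.0195, adjusted p = 0.945), and without a term for the code form the adjusted p was 0.999. The interaction of LEV with code form had an unadjusted p of 0.132 and an adjusted p of 0.543, so a difference between the code forms was not called. VEH animal 1, whose Y-linked counts go against its label, held the highest Grin2b count of all animals, 1104. Without it the log2 fold change was -0.37 (adjusted p = 0.342). The adjusted p then became 0.0990 with DESeq2, 0.0723 with treatment by code form and 0.0654 in animals 1 to 6 alone. These 3 calls were thus lost, while that after the subtraction of batch effects stayed (adjusted p = 0.00609). The subtracted terms were estimated from the same animals and are not counted in the DESeq2 fit that followed, so its p-values tend to be too small. The log2 fold change went to -0.37 from -0.40 with DESeq2, to -0.38 from -0.41 with treatment by code form, to -0.49 from -0.53 in animals 1 to 6 and to -0.38 from -0.41 after the subtraction. With VEH animal 1 left out these fits called 0.0229%, 0.0153%, 1.03% and 0.0841% of all transcripts.

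In PB against VEH the log2 fold change of Grin2b was -0.17 (SE 0.093, adjusted p = 0.324) over all animals. It was -0.46 (SE 0.13, adjusted p = 0.112) in animals 1 to 6, in which 6 of 6 PB animals had values under the mean for VEH, and 0.08 (SE 0.11, adjusted p = 0.711) in animals 7 to 14, in which 6 of 8 lay above it. The interaction of treatment with code form had an unadjusted p of 0.00306 and an adjusted p of 0.214, so a difference between the code forms was not called. Without VEH animal 1 the value in animals 1 to 6 was -0.41 (SE 0.13, adjusted p = 0.227), and the interaction had an unadjusted p of 0.00807 and an adjusted p of 0.303. PB and LEV differed by 0.24 (SE 0.093, adjusted p = 0.128), with 12 of 14 PB animals above the LEV mean of their code form.

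Grin2a, the subunit that takes the place of Grin2b as the hippocampus matures, overlapped widely between groups. Its normalized count ranged from 440 to 945 (median 692) in VEH, from 476 to 911 (median 626) in PB and from 373 to 815 (median 611) in LEV. The log2 fold change was -0.08 (SE 0.11, adjusted p = 0.759) for PB against VEH and -0.18 (SE 0.11, adjusted p = 0.898) for LEV against VEH. Each code form was then fitted alone. In animals 1 to 6 the log2 fold change was -0.48 for LEV (adjusted p = 0.0786), with 6 of 6 LEV animals under the mean for VEH, and -0.27 for PB (adjusted p = 0.451). In animals 7 to 14 it was 0.08 for LEV and 0.10 for PB. The interaction for LEV had an unadjusted p of 0.0122 and an adjusted p of 0.228. Without VEH animal 1, Grin2a in animals 1 to 6 was at -0.50 for LEV (adjusted p = 0.108) and -0.29 for PB (adjusted p = 0.495), and the interaction for LEV had an unadjusted p of 0.0139 and an adjusted p of 0.263.

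The ratio of Grin2b to Grin2a was then taken in each animal, on the log2 scale with 0.5 added to both normalized counts. Because the counts are not divided by transcript length, only its change between animals can be read, not its absolute level. It ranged from -0.74 to 0.63 (median 0.06) in VEH, from -0.62 to 0.40 (median -0.11) in PB and from -0.75 to 0.58 (median -0.43) in LEV. The groups overlapped, and the low values of LEV were those of its animals 7 to 14. Taken within the code form, the mean log2 ratio differed between PB and VEH by -0.08 (SE 0.11, permutation p = 0.459, adjusted p = 0.459). It was -0.21 (SE 0.10, permutation p = 0.0581, adjusted p = 0.174) for LEV against VEH and 0.14 (SE 0.087, permutation p = 0.168, adjusted p = 0.252) for PB against LEV. These were two-sided permutation tests with 100000 resamples within the code form, adjusted over the 3 comparisons, and none passed the limit. Without VEH animal 1 the difference of LEV from VEH was -0.19 (permutation p = 0.0917, adjusted p = 0.252) and that of PB was -0.048 (permutation p = 0.6555, adjusted p = 0.6555).

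**Figure D3:**
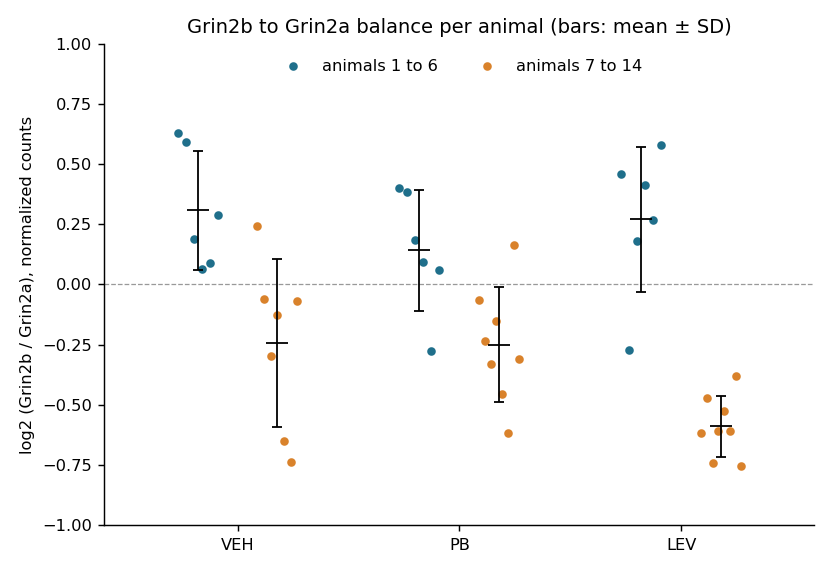
Log2 ratio of Grin2b to Grin2a normalized counts in each animal (vertical axis), by group and coloured by code form, with bars for the mean ± SD. Animals 7 to 14 had lower means than animals 1 to 6 in every group, with some overlap in VEH and PB, and the 8 LEV animals of that code form lay between -0.75 and -0.38.

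The ratio was also compared within each code form. In animals 1 to 6 the mean log2 ratio was 0.31 ± 0.25 for VEH (SD, n = 6), 0.14 ± 0.25 for PB (n = 6) and 0.27 ± 0.30 for LEV (n = 6). In animals 7 to 14 it was -0.24 ± 0.35 for VEH (n = 7), -0.25 ± 0.24 for PB (n = 8) and -0.59 ± 0.13 for LEV (n = 8). In the latter, LEV differed from VEH by -0.35 (permutation p adjusted over the 3 comparisons = 0.0326) and PB from LEV by 0.34 (adjusted permutation p = 0.00879), whereas in animals 1 to 6 these differences were -0.04 and -0.13. The difference between PB and LEV itself differed between the code forms, by -0.47 (permutation p = 0.016, adjusted p = 0.0481), and for LEV against VEH the corresponding value was 0.31 (permutation p = 0.138, adjusted p = 0.208). Without VEH animal 1 the mean log2 ratio of VEH in animals 1 to 6 was 0.24 ± 0.21 (n = 5), LEV differed from it by 0.03 and PB by -0.10, and the value for LEV against VEH between the code forms was 0.37 (permutation p = 0.0801, adjusted p = 0.12). Animals 7 to 14 of LEV had mean normalized counts of 424 for Grin2b and 645 for Grin2a, against 512 and 610 in VEH. Animals 1 to 6 of LEV had means of 649 and 541, against 942 and 757 in VEH, or 910 and 766 without VEH animal 1.

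Grin2b differed more between the code forms than between any pair of treatments. Animals 7 to 14 had a mean normalized count of 493 and animals 1 to 6 one of 759, a log2 difference of -0.60 (SE 0.076, adjusted p = 6.38e-08). All values of this comparison include VEH animal 1. Between the code forms 30.2% of all transcripts had an adjusted p under 0.05, and 5 of 15 members did, all lower in animals 7 to 14. They were Grin2b, Grin2d (-0.22, adjusted p = 0.000378) and the Grin1 transcripts NM_001270603 (-0.27), NM_001270605 (-0.20) and NM_017010 (-0.13). Grin2a differed by 0.0044 on the log2 scale (adjusted p = 0.978), so that the log2 ratio of Grin2b to Grin2a was lower by a mean difference of -0.60 in animals 7 to 14 (permutation p = 1e-05, the smallest that the resamples allow). What the code form stands for, and its part in these differences, was not tested.

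Grin2c and Grin2d encode the remaining GluN2 subunits, of which GluN2C is best known from the cerebellum and GluN2D from the immature brain and from interneurons. For Grin2c the normalized count ranged from 710 to 1660 (median 1214) in VEH, from 958 to 1508 (median 1269) in PB and from 833 to 1615 (median 1213) in LEV. The VEH range enclosed both others. The log2 fold change was -0.0027 (SE 0.087, adjusted p = 0.992, 95% interval -0.17 to 0.17) for PB and -0.05 (SE 0.087, adjusted p = 0.987, 95% interval -0.22 to 0.12) for LEV against VEH. For Grin2d the normalized count ranged from 580 to 929 (median 785) in VEH, from 612 to 894 (median 726) in PB and from 639 to 892 (median 774) in LEV. Both drug groups again lay inside the VEH range. Its log2 fold change was -0.06 (SE 0.057, adjusted p = 0.631, 95% interval -0.17 to 0.05) for PB and 0.02 (SE 0.057, adjusted p = 0.989, 95% interval -0.10 to 0.13) for LEV, the narrowest intervals among the genes with a single transcript.

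Grin3a, a GluN3 subunit that is abundant in the early postnatal brain, was counted as NM_001198583 and NM_138546. Summed, its normalized count ranged from 340 to 710 (median 576) in VEH, from 396 to 903 (median 625) in PB and from 458 to 669 (median 557) in LEV. The groups overlapped, with the highest animal in PB. The log2 fold change of the sum was 0.14 (SE 0.090, adjusted p = 0.377) for PB and -0.02 (SE 0.091, adjusted p = 0.989) for LEV against VEH. The rarer transcript NM_138546 ranged from 71.9 to 300.0 (median 120) in VEH, from 108 to 289 (median 181) in PB and from 98.6 to 230 (median 139) in LEV, and its log2 fold change for PB against VEH was 0.34 (SE 0.18, adjusted p = 0.297). Each code form was again fitted alone. In animals 7 to 14 the log2 fold change was 0.76 (SE 0.19, adjusted p = 0.0235) for PB against VEH, a fit that called 1.3% of all transcripts, and 6 of 8 PB animals lay above every VEH animal. In animals 1 to 6 it was -0.08 (SE 0.26, adjusted p = 0.933).

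For LEV against VEH the same transcript was 0.55 (SE 0.19, unadjusted p = 0.00708, adjusted p = 0.945) in animals 7 to 14 and -0.54 (SE 0.26, adjusted p = 0.330) in animals 1 to 6. Among animals 7 to 14, 6 of 8 LEV animals also lay above every VEH animal, as many as in PB. The interaction with code form had an unadjusted p of 0.0131 for PB and 0.00182 for LEV, with adjusted p of 0.314 and 0.102. Without VEH animal 1 the values of NM_138546 in animals 1 to 6 were -0.21 for PB (adjusted p = 0.788) and -0.68 for LEV (adjusted p = 0.213), and the interaction had an unadjusted p of 0.00397 and 0.000492, with adjusted p of 0.228 and 0.0707. In VEH the share of Grin3a counts given to NM_138546 had a mean of 28.7% ± 10.2 (SD, n = 6) in animals 1 to 6 and 20.9% ± 3.87 (n = 7) in animals 7 to 14. Over the 15 members, 0 had an interaction with code form past an adjusted p of 0.05 in PB against VEH, LEV against VEH or PB against LEV, where 0.0689%, 0.842% and 0.023% of all transcripts did. At an unadjusted p under 0.05 the members were 2, 3 and 2, where 11.1%, 12.8% and 6.91% of all transcripts were under that limit.

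**Figure D4:**
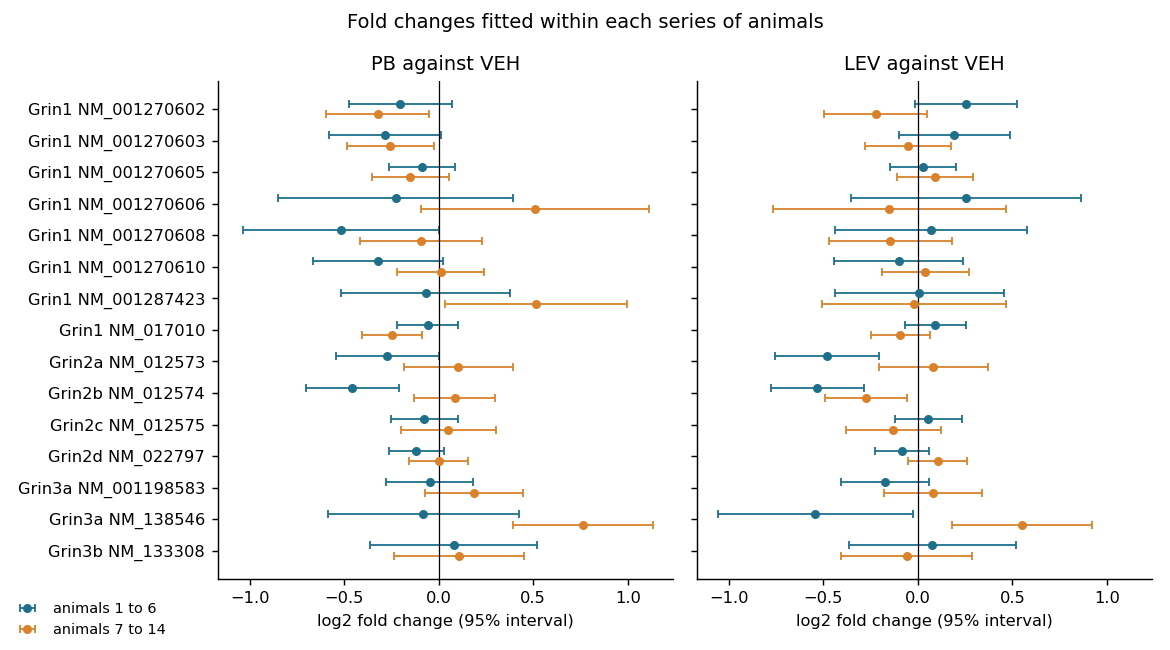
Log2 fold changes of the 15 subunit transcripts (rows) for PB and LEV against VEH, fitted in animals 1 to 6 and in animals 7 to 14, with 95% intervals. Grin3a NM_138546 after LEV has its 2 values on either side of 0 (-0.54 and 0.55), as has Grin2b after PB (-0.46 and 0.08).

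Grin3b, the other GluN3 subunit, which is best known from motor neurons, was barely counted, with 22 to 72 estimated counts per animal. Its normalized count ranged from 19.9 to 55.3 (median 42.9) in VEH, from 26.5 to 69.8 (median 45.2) in PB and from 26.2 to 64.8 (median 40.8) in LEV. The log2 fold change was 0.09 (SE 0.14, adjusted p = 0.757) for PB and 0.0003 (SE 0.14, adjusted p = 1.00) for LEV against VEH. At this depth the 95% interval for PB ran from -0.18 to 0.36, so it holds 0 and differences of either sign.

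The spread over all animals, with treatments and code forms pooled, differed among the subunits. Over all 41 animals the coefficient of variation of the normalized count was 10.2% for Grin1 summed, 12.8% for Grin2d, 16.3% for Grin2c, 17.4% for Grin3a summed, 21.1% for Grin2a, 23.9% for Grin3b and 31.1% for Grin2b. The value of Grin3b includes its low counts. With treatment and code form removed from the log2 counts scaled to library size, Grin2a and Grin2b were correlated across the 41 animals (Pearson r = 0.58, Spearman rho = 0.55). Grin2b also went with Grin3a (r = 0.55), and Grin3a with Grin2d (r = 0.53). Grin1 went with Grin2c (r = 0.50) and hardly at all with Grin2a (r = 0.08) or Grin2b (r = 0.04). The animals share library depth and dissection, and these correlations are given as a description.

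**Figure D5:**
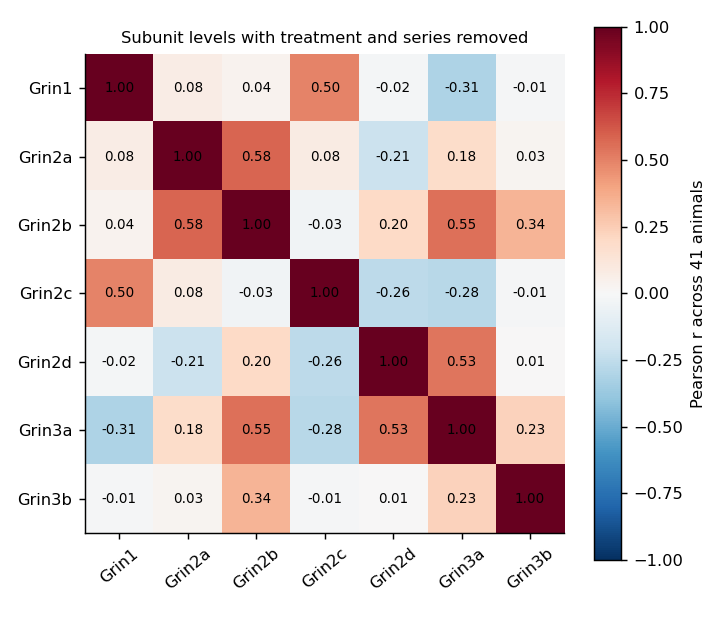
Pearson r between the 7 subunit genes across 41 animals, on the log2 count scale with treatment and code form removed, from blue (-1) to red (1). The largest values off the diagonal are those of Grin2a with Grin2b (0.58), Grin2b with Grin3a (0.55) and Grin3a with Grin2d (0.53).

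Cell type markers were set beside these values, as a summed normalized count per animal. The markers of excitatory hippocampal neurons, of which 7 of 7 were tested, summed to 19650 to 24570 in VEH, 17912 to 21510 in PB and 17270 to 24105 in LEV. Grin1 followed this sum across the animals (r = 0.72 with treatment and code form removed, n = 41), as did Grin2c (r = 0.62), while Grin2b did not (r = 0.08). For Grin2a, Grin3b, Grin2d and Grin3a the r was 0.29, -0.05, -0.30 and -0.43. With the interneuron markers that follow, the r of Grin1 was 0.47. The interneuron markers (6 of 6 tested) summed to 5213 to 7603 in VEH, 4518 to 7210 in PB and 6183 to 7835 in LEV, and Sst (-0.38, adjusted p = 0.0018) and Slc32a1 (-0.27, adjusted p = 0.0037) were lower in PB than in VEH. Choroid plexus markers (7 of 7 tested) ranged from 66.2 to 53075 in VEH, 95.1 to 84273 in PB and 72.7 to 60506 in LEV. The r of Grin2b with them was -0.02. The 18S ribosomal RNA Rn18s took a median of 0.507% of counts in LEV animals 7 to 14, against 1.13% in VEH animals 7 to 14 and 1.03% in LEV animals 1 to 6. In PB animals 7 to 14 the median was 0.694% (0.434% to 0.905%), against 1.15% in PB animals 1 to 6. The r of Grin2b with this share was -0.08 and that of Grin1 was -0.25. Skeletal muscle markers (3 of 6 tested) summed to 116 to 447 in VEH, 68.8 to 161 in PB and 106 to 542 in LEV, and thalamus markers (3 of 4 tested) to 273 to 398, 312 to 579 and 321 to 526. All 3 tested muscle markers were lower in PB than in VEH past the limit on the fold (list median -2.06), and 2 of 3 thalamus markers, Prkcd and Tcf7l2, were higher past it (list median 0.35). Of the neuron markers 1 of 7 transcripts was lower in PB than in VEH at an adjusted p under 0.05. Of the astrocyte markers 1 of 15 was higher and 2 were lower. Among all transcripts 3.46% were lower and 1.93% higher at that limit, and 0.605% passed together with the limit on the fold, in either direction. No marker of excitatory hippocampal neurons, oligodendrocytes, their precursors, microglia, choroid plexus or red blood cells passed in PB against VEH or LEV against VEH. In PB against LEV 1 of 7 transcripts of excitatory hippocampal neurons was higher past the limit on the fold, beside 0.582% of all transcripts in either direction. The part of these markers in the differences of Grin1 was not tested.

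The proteins that anchor, phosphorylate or supply the receptor were described from lists of genes. Of the 17 transcripts of 12 scaffold genes, which tie the receptor to the postsynaptic density, 1 was lower in PB than in VEH at an adjusted p under 0.05 and none higher, where 3.46% of all transcripts were lower and 1.93% higher. It was Shank3 (-0.17, SE 0.046, adjusted p = 0.0190), and its value for LEV was -0.17 (adjusted p = 0.248). Next by p were Dlg3 (-0.08, adjusted p = 0.0568) and Dlg4, which encodes PSD-95 (-0.11, adjusted p = 0.147). Relative to LEV, where 2.78% of all transcripts were lower in PB and 1.67% higher, 1 scaffold transcript was lower, NM_001304287 of Dlgap1 (-0.27, adjusted p = 0.0229). The median log2 fold change of the list was -0.04 in PB against VEH, beside 0.0046 over all transcripts tested.

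Kinases and phosphatases that act on the receptor showed the most calls among these lists. At an adjusted p under 0.05, 3.46% of all transcripts were lower and 1.93% higher in PB than in VEH. Of the 17 transcripts of 15 genes in this list, 5 were lower and 0 higher, none past the limit on the fold. The list median was -0.03. The lower transcripts included Camk2a (-0.26, adjusted p = 0.0364) and the NM_021739 transcript of Camk2b (-0.19, adjusted p = 0.0060). These encode subunits of the calcium/calmodulin kinase that binds GluN2B. Ptk2b, the kinase Pyk2, was at -0.24 (adjusted p = 0.0126). The calcineurin subunits Ppp3ca (-0.13, adjusted p = 0.0340) and Ppp3cb (-0.11, adjusted p = 0.0116) completed the list. Relative to LEV, NM_021739 (-0.20, adjusted p = 0.0052) and Ppp3cb (-0.09, adjusted p = 0.0364) were lower in PB. Another Camk2b transcript, NM_001042356, was higher (0.18, adjusted p = 0.0433). In that comparison 2.78% of all transcripts were lower and 1.67% higher.

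Of 11 tested transcripts that handle the co-agonists glycine and D-serine, 2 were lower in PB than in VEH and none higher. This count, and that of trafficking transcripts below, stand beside 3.46% of all transcripts lower and 1.93% higher. Slc7a10, the transporter Asc-1 of glycine and D-serine, was at -0.36 (SE 0.052, adjusted p = 5.1e-05), with mean normalized counts of 406 for VEH, 316 for PB and 395 for LEV. It was the only listed partner of the receptor past the limit on the fold. Slc6a9, the glycine transporter GlyT1, was at -0.17 (adjusted p = 0.0204), and both were also lower in PB than in LEV (-0.33 and -0.19). Phgdh, of serine synthesis, was at -0.07 (adjusted p = 0.345). Of 10 trafficking transcripts 1 was lower in PB, Nsf, whose product drives membrane fusion (-0.20, adjusted p = 0.0039, and -0.20 against LEV). Lin7a (0.35, adjusted p = 0.104) and Neto1 (-0.11, adjusted p = 0.179) followed by p.

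Among 11 tested transcripts tied to the developmental exchange of Grin2b for Grin2a, no adjusted p was under 0.05 in PB against VEH (edgeR). Of all transcripts 5.39% were under that limit. The smallest were those of Ezh2 (0.24, adjusted p = 0.0600), Reln (-0.16, adjusted p = 0.121) and Rcor1 (0.08, adjusted p = 0.176). In LEV against VEH no transcript of the 5 lists passed the adjusted limit in edgeR, as 0.00766% of all transcripts did. With the developmental list the r across animals, treatment and code form removed, was 0.43 for Grin2b, 0.38 for Grin2a, 0.44 for Grin2d and 0.65 for Grin3a. For Grin1, Grin2c and Grin3b it was -0.29, -0.43 and -0.10.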

How the data were processed

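RNA from whole hippocampi was sequenced as paired reads. Per the labels and the study's methods, the authors aligned reads to rn6 with STAR 2.7.3a and assigned them to RefSeq transcripts in Partek by expectation maximisation. The deposited values are estimated counts, of which 13.7% were not whole, and they were rounded here. Whether counting used strand is not given in the sources used here. Another deposited table holds the authors' DESeq2 fold changes and p-values and was not used.

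Counts were tested with edgeR 4.0.16 (R 4.3.3, quasi-likelihood, TMM scaling, filterByExpr by treatment) with treatment and code form as terms, all 3 groups in 1 fit, and Benjamini-Hochberg adjustment over all tested transcripts. A call needed an adjusted p under 0.05 and a log2 fold change of at least 0.32 in size. Sums per gene were fitted in a table of their own. Normalized counts are counts scaled by effective library size. The scripts were tested on simulated data. DESeq2 1.42.0 was an alternative. Treatments were balanced within litters by the study, but the labels give no litter, so litter is not in the fit. The members and gene lists were chosen with earlier results of these data known. Named partners are those of each list with an adjusted p under 0.05 and, where fewer than 3 passed, the 3 with the smallest p in PB against VEH. Intervals cover the spread between animals.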

Additional observations from a re-analysis of the deposited data

Results flagged for a closer look

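In 108 groups of 6 to 8 animals, 3 held an animal far from the rest of its group, where chance gives about 1 in 20 groups. For Grin1 NM_001270606, LEV animal 1 was the highest of 6 with a normalized count of 102, and the nearest animal had 52.4. For Grin1 NM_001287423, VEH animal 6 was the lowest of 6 with 175, and the nearest had 225. For Grin3a summed, PB animal 7 was the highest of 8 with 903, and the nearest had 710.

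The difference between PB and LEV in the log2 ratio of Grin2b to Grin2a differed between the code forms by -0.47 (permutation p = 0.016, adjusted over 3 comparisons 0.0481), being -0.13 in animals 1 to 6 and 0.34 in animals 7 to 14.

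The VEH animal marked as excluded, which entered no comparison, had normalized counts above all 13 other VEH animals for 4 of the 7 genes. They were 11067 for Grin1 (highest of the others 7805), 2331 for Grin2c (1660), 1058 for Grin2d (929) and 869 for Grin3a (710). For Grin2a, Grin2b and Grin3b it had 859, 985 and 45.0, below the highest of the others (945, 1104 and 55.3). Among the other VEH animals of its own code form the highest were 822 for Grin2a and 669 for Grin2b. Its values of these genes lay above both. In this library Rn18s took 2.42% of counts, against 0.853% to 1.23% in the other VEH animals, and the Y-linked Eif2s3y and Ddx3 had 115 and 204 estimated counts, against 705 to 1028 and 475 to 891 in the analysed animals other than VEH animal 1. The part of these in its subunit counts was not tested.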

How the results depend on the processing

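With 13 or 14 animals a group, the intervals given show how closely each log2 difference was estimated, and the lowest depth concerns Grin3b. The cause of the changes below was not tested.

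Over all transcripts the calls in PB against VEH, LEV against VEH and PB against LEV were 79, 0 and 76. Without a fold limit they were 704, 1 and 581. LEV against VEH gave 5 calls, 1 of them a member, with DESeq2 and likewise with treatment by code form, and 1 call without a filter. Animals 1 to 6 alone gave 14, 171 (1 member) and 21 calls. Animals 7 to 14 alone gave 170 (1 member) and 6 calls against VEH. Batch subtraction with DESeq2, whose p-values do not count the subtracted terms, gave 119, 13 (1 member) and 115. The single member called in PB against LEV became 0 without the code form term, in either code form alone, with the replicate block, with all 14 VEH animals, which gave 34 calls in that comparison, and with counts summed per gene. Leaving out 1 animal at a time gave 52 to 115, 0 to 4 and 39 to 101 calls, and 0 to 1 members in PB against LEV.

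At the median, animals of the same number were no more alike than others: of 40 same-number pairs 11 had a correlation over 0.1 (median -0.04, other pairs -0.03). Number 8 had values of 0.28, 0.25 and 0.28, and number 11 had 0.20, 0.15 and 0.25. Since litters are not labelled, this check cannot decide whether some numbers mark litters. With the replicate block Grin2b in LEV against VEH was -0.42 (adjusted p = 0.167) and Grin1 NM_001270603 in PB against LEV had an adjusted p of 0.0645. The block gave 55, 0 and 63 calls, and the balance within animal numbers was -0.20 (adjusted p = 0.319) for LEV against VEH. The balance in PB against LEV was -0.13 in animals 1 to 6. In animals 7 to 14 it was 0.34, and LEV against VEH was -0.35. Other fits and code form values without VEH animal 1 than the leaving out of 1 animal at a time, and the fits of summed Grin1 and Grin3a counts, were chosen after seeing the data.

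Log2 fold changes that turned sign were mostly small. In LEV against VEH, Grin3b was -0.0010 without a filter, -0.0010 without the code form term, -0.059 in animals 7 to 14, -0.016 with the block and -0.0080 with all 14 VEH animals. Grin1 NM_001270602 was 0.014 with treatment by code form, 0.26 in animals 1 to 6, 0.017 after batch subtraction and 0.026 with the block. Animals 1 to 6 gave, for PB against VEH, -0.23 for NM_001270606, -0.069 for NM_001287423, -0.048 for NM_001198583, -0.082 for NM_138546 and -0.060 for Grin3a summed. For LEV against VEH they gave -0.086 for Grin2d, 0.056 for Grin2c, 0.071 for NM_001270608, 0.0080 for NM_001287423, 0.091 for NM_017010 and -0.54 for NM_138546. For PB against LEV they gave -0.13 for Grin2c, -0.48 for NM_001270606 and -0.077 for NM_001287423. Animals 7 to 14 gave, for PB against VEH, 0.10 for Grin2a, 0.051 for Grin2c, 0.010 for NM_001270610 and 0.085 for Grin2b. For LEV against VEH they gave 0.082 for Grin2a, -0.051 for NM_001270603, -0.15 for NM_001270606, 0.040 for NM_001270610, 0.082 for NM_001198583, -0.053 for Grin1 summed and 0.19 for Grin3a summed, and for PB against LEV 0.052 for NM_001270608. Batch subtraction gave 0.0014 for NM_001287423 in LEV against VEH. The block gave 0.026 for Grin2c in PB against VEH and 0.012 for NM_017010 in LEV against VEH. All 14 VEH animals gave -0.0088 for NM_001198583 in PB against VEH and, in LEV against VEH, -0.031 for Grin2d, -0.033 for NM_001270603, -0.010 for NM_001270605 and -0.061 for Grin1 summed. Fitting only LEV and VEH gave -0.00023 for Grin1 summed.

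On leaving out 1 animal at a time, LEV against VEH ran from -0.035 to 0.15 for NM_138546, -0.066 to 0.042 for Grin3b, -0.11 to 0.042 for NM_001287423, -0.043 to 0.044 for NM_001270602, -0.12 to 0.11 for NM_001270606, -0.041 to 0.016 for NM_017010, -0.10 to 0.028 for NM_001270608, -0.0074 to 0.040 for Grin2d, -0.10 to 0.0018 for Grin2c, -0.086 to 0.0040 for NM_001198583, -0.0087 to 0.025 for Grin1 summed and -0.076 to 0.0062 for Grin3a summed. Grin2c in PB against VEH ran from -0.052 to 0.049.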

Other observations

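The genes whose levels followed Grin2b most closely across the 41 animals, on the log2 scale with treatment and code form removed, were Mib1 (Pearson r = 0.78), Fut9 (0.76), Plxdc2 (0.75), Pcdh15 (0.75) and Tub (0.75), among 10384 genes with a mean of at least 50 counts. The lowest r were those of Lrrc71 (-0.70), Mrps18a (-0.62) and Bsdc1 (-0.62). For Grin2a the highest were Prkca (0.84), Cacna1e (0.83), Slc9a7 (0.82), Ppm1e (0.82) and Scn8a (0.82), and the lowest Rpsa (-0.67), Ndn (-0.62) and Ube2r2 (-0.62). The animals share depth and dissection, and these values are a description.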
